A study of Mus musculus with 40 samples.

Results

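In Th2 cells cultured from mouse spleen CD4 T cells, 6900 of the 31218 peaks of acetylated lysine 27 of histone H3 (H3K27ac) called in wild type (WT) cells overlapped no H3K27ac peak called in cells labelled Setdb1 KO. They are called WT-only peaks here. They were selected on measured values, by comparing the authors' 2 H3K27ac lists on chromosomes 1 to 19 and X, with 1 shared base counting as overlap, and they made up 22.1% of the WT list. The other 24318 WT peaks are called shared, and 11785 of the 40670 peaks of the KO-labelled list overlapped no WT peak. With 1 H3K27ac library for each genotype, the peaks carry no test, and being absent from a list is not the same as having no acetylation.

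H3K27ac marks active enhancers and promoters, and H3K4me1 marks enhancers whether active or poised. SETDB1 places methyl groups on lysine 9 of the same histone, and the trimethylated form (H3K9me3) goes with silencing. Th2 cells are the helper T cells that make IL-4, IL-5 and IL-13 under the transcription factor GATA3, and their stable identity rests on enhancers that are set up as naive cells differentiate.

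The strain labels were C57BL/6 Setdb1+/+ for WT and C57BL/6 Setdb1-/- for KO, and Suv39h1-/- for Th2 cells used in 1 comparison of H3K9me3. The labels do not say how, or in which cells, Setdb1 was deleted. Th2 groups were cultured for 6 days. For the first 3 days plates were coated with antibody to CD3 (10 ug/mL) and the medium held antibody to CD28 (1 ug/mL). IL-4 was present throughout at 50 ng/mL, as was antibody against IFN-gamma (10 ug/mL), and IL-2 (30 IU/mL) was added from day 3. Naive groups had 0 days of culture. Th2-Th1 groups were Th2 cells that were washed and put for 2 days in IL-12, at 10 ng/mL, and a blocking antibody to IL-4 (10 ug/mL). RNA was sequenced from WT cells in 3 Th2, 4 naive and 2 Th2-Th1 libraries, and from cells labelled Setdb1 KO in 3 libraries of each kind. Nothing in the labels says that these came from separate animals, so p-values measure the spread between libraries, which may be technical.

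Setdb1 RNA went against the genotype labels in Th2 cells. It was 693.6, 933.4 and 840.7 normalised reads in Th2 WT and 8070, 9044 and 8342 in KO-labelled Th2, which is 3.37 ± 0.12 higher on the log2 scale (SE, limma adjusted p = 7.22e-14). A gene-level value does not say which exons were read, so it neither shows nor refutes a deletion, and every direction below refers to libraries labelled Setdb1 KO. Total reads were 10.1 to 13.3 M in Th2 WT and 36.3 to 44.7 M in the KO-labelled Th2 libraries, and ribosomal protein genes took 6.34% to 7.14% and 2.25% to 2.37% of them. All 6 CD4 T cell markers and all 6 Th2 markers had a mean of 10 or more in both Th2 groups. The summed CD4 T cell markers were lower in KO-labelled libraries, at 28532 to 32547 against 44844 to 45468 in WT, and did not overlap. The summed level of 8 erythroid and platelet markers was 20.4 to 36.3 in WT and 385.9 to 422.8 in KO-labelled libraries. In each of these groups only 1 of the 8 had a mean of 10 or more. The globin genes Hba-a2 and Hbb-bs were at 0 in all 6 Th2 libraries. The part of these differences in the results below was not tested. In bulk samples, fewer cells of a type and less RNA per cell cannot be told apart.

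The clearest pattern lay at gene starts, so the promoters of 6 genes that carry it are shown first. Each had a WT-only peak, and no shared peak, within 1000 bp of a start site, and lower RNA in the KO-labelled Th2 libraries. The sequences are the 250 bases before the start, 5′ to 3′ on the gene's strand, from RefSeq (GRCm38.p6). Capitals mark GATA motifs (AGATAA and also AGATAG, with TGATAA and also TGATAG), AP-1 motifs (TGAGTCA and also TGACTCA), STAT motifs (TTC and GAA with 4 bases between) and the core of the hypoxia response element (ACGTG and also GCGTG), on either strand. The first is at chr6:145865421-145865670 (minus strand) and lies between 2 WT-only peaks. The second is at chr11:58801961-58802210 (minus), with 68.8% of it inside a WT-only peak, and holds none of the motifs. The others lie wholly inside a WT-only peak, at chr11:9117758-9118007 (plus), chr12:70227684-70227933 (minus), chr3:101110167-101110416 (minus) and chr11:54100674-54100923 (plus).
Bhlhe41: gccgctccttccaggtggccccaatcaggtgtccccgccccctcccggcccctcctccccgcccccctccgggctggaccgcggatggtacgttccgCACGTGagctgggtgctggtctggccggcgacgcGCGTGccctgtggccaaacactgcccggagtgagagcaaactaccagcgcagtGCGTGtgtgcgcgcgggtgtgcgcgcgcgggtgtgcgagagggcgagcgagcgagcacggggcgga
Fam183b: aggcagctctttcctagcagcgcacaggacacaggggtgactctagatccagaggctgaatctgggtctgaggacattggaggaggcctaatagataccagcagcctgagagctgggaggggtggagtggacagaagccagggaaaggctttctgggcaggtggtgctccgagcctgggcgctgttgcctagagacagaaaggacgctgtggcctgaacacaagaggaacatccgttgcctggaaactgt
Upp1: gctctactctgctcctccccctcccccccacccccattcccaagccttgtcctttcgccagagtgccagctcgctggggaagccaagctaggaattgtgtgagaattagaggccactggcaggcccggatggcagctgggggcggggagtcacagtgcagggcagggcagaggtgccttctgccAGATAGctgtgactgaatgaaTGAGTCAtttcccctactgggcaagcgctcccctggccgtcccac
Pygl: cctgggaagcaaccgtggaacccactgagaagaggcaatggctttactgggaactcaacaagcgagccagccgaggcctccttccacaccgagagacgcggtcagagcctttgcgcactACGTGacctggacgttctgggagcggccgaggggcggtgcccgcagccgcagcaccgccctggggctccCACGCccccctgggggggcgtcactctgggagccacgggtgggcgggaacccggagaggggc
Ptgfrn: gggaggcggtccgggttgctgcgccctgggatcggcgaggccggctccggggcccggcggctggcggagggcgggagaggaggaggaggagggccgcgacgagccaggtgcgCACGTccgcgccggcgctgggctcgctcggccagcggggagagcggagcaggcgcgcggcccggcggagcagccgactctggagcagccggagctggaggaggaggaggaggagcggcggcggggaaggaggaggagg
P4ha2: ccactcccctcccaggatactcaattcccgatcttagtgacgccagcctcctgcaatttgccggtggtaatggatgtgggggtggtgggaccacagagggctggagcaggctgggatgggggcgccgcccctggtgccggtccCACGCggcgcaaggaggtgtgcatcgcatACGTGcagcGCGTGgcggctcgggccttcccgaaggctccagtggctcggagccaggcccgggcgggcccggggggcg
The core of the hypoxia response element was present in 38.8% of all 32585 promoter windows of this length, in 54.0% of the 250 with at least 50% of their bases in WT-only peaks and none in a shared peak, and in 58.8% of the 9905 covered in the same way by shared peaks. GATA motifs were present in 26.6% of all windows, 17.2% of those in WT-only peaks and 14.96% of those in shared peaks. For AP-1 the shares were 4.48%, 4.40% and 3.05%, and for STAT 5.89%, 3.20% and 4.52%. AP-1 and STAT motifs were thus in few windows of any set, and the windows in WT-only peaks resembled those in shared peaks in base composition, with a median GC content of 62.2% against 61.2% (52.4% over all windows). CACGTG holds the hypoxia core on both strands, as in the Bhlhe41 window.

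The WT-only peaks were short and weak as called. Their median length was 472 bp (range 159 to 5496) against 1414 bp for shared peaks, and their median score, which is 10 times the -log10 q of the authors' peak caller, was 17 (range 11 to 86) against 49. KO-labelled peaks that overlapped no WT peak were short and weak too, with a median length of 190 bp and a median score of 20. Of WT peaks with a score under 15, 66.7% were WT-only, and of those with a score of 50 or more, 0.794%. The shortest peak was 159 bp in the WT list and 98 bp in the KO-labelled list. Peaks just inside the rule, with a KO-labelled peak less than 100 bp away, numbered 169 and had a median score of 16, and the 492 shared peaks just outside it, with an overlap of under 100 bp, had a median score of 18. At the other end, 2813 WT-only peaks had no KO-labelled peak within 10000 bp. The same lists define the set, so these values describe it and test nothing.

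**Figure D1:**
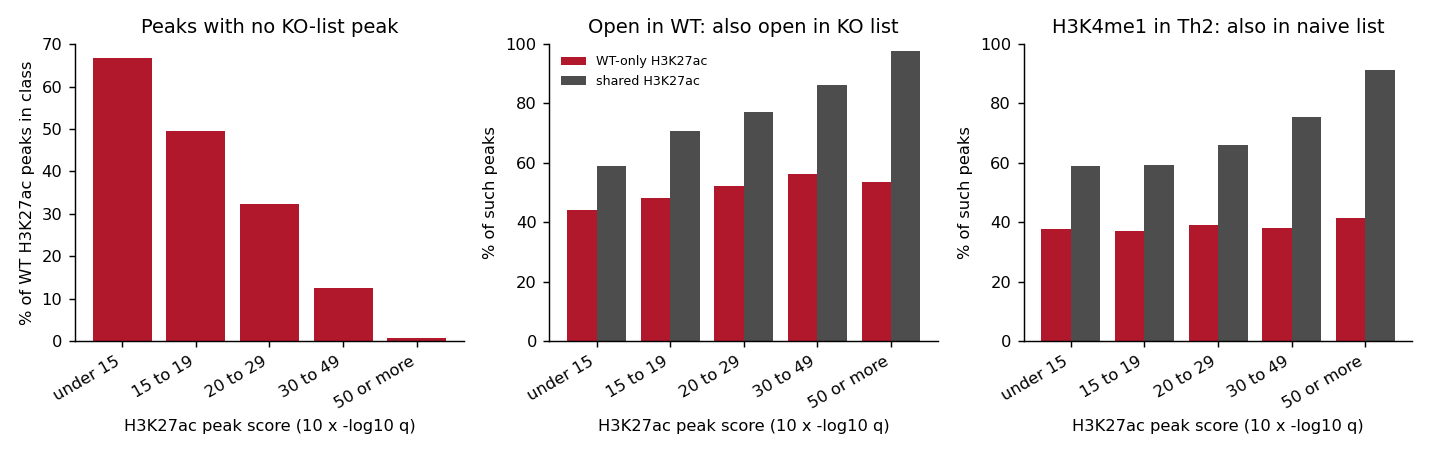
WT H3K27ac peaks by score class (10 times -log10 q, x axes). Left, percent of the peaks of a class that were WT-only; middle, percent of peaks open in the WT ATAC-seq list that were also open in the KO-labelled list; right, percent of peaks with H3K4me1 in Th2 that also had it in naive cells. The WT-only share falls from 66.7% to 0.794% with the score, and in each class the red bars of WT-only peaks are below the grey bars of shared peaks.

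They lay away from gene starts. Of the 6669 WT-only peaks on chromosomes with start sites in the table used, 9.52% were within 1000 bp of a start, 57.6% lay in a gene body and 32.8% were intergenic. For shared peaks the share at a start was 37.6%, and for KO-labelled peaks that overlapped no WT peak it was 6.10%. The median distance to the nearest start was 18617 bp for WT-only and 6806 bp for shared peaks, and 17212.5 bp for those KO-labelled peaks. Distance from starts was thus not particular to WT-only peaks. The 231 WT-only peaks on chromosome 18 were not placed, since start sites there were not used here. Starts were also missing on other chromosomes. A start was held for 11553 of the 16170 tested genes with a position. For each set of peaks the shares at starts may therefore be too low and the distances too long. Even among peaks with a score of 50 or more, 17.0% of WT-only peaks and 56.4% of shared peaks were at a start. WT-only peaks took between 17.99% (chromosome 11) and 26.9% (chromosome 6) of the WT peaks of a chromosome.

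Most WT-only peaks stood alone. When those no more than 12.5 kb apart were joined, 4671 had no other beside them, 744 pairs formed, and 218 clusters held 3 or more. The cluster at Chn2, which encodes a chimaerin that inactivates the GTPase Rac, held 7 peaks over 27718 bp on chromosome 6, with no shared peak among them. Of these 7, 6 had H3K4me1 in Th2 cells and 4 in naive cells. A second cluster of 7 spanned Sp1 and Amhr2 on chromosome 15, and the clusters at Etv6 and Nab1 held 6 each. Chn2 RNA fell from 1123, 1080 and 1167 in Th2 WT to 596.0, 608.0 and 576.0 in the KO-labelled libraries (log2 -0.92 ± 0.17, adjusted p = 0.000148). Nab1, which encodes a corepressor of EGR factors, fell by 0.74 ± 0.11 on the log2 scale (adjusted p = 1.28e-05), while Sp1 gave -0.04 ± 0.13 (adjusted p = 0.827).

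Fewer than 1 in 2 WT-only peaks were in open chromatin as listed by ATAC-seq, and those that were open in WT were often absent from the KO-labelled list. The WT ATAC-seq list overlapped 48.1% of WT-only peaks (80.5% of all WT H3K27ac peaks) and the KO-labelled list 24.96% (68.4% of all). Of the 3322 WT-only peaks open in WT, 49.9% were open in the KO-labelled list too, against 89.3% of the shared peaks open in WT. Of the KO-labelled H3K27ac peaks that overlapped no WT peak, 2895 were open in WT, and 59.6% of these were open in both lists. In that set 1171 were open in WT only and 441 in the KO-labelled list only. Lower openness in the KO-labelled list was thus not particular to WT-only peaks. The 2 ATAC-seq lists differ in size and are each 1 merged set, so this has no replicate check. The gap between WT-only and shared peaks was present in each score class: WT-only peaks ranged from 44.0% to 56.4%, and shared peaks from 58.9% to 97.6%. 

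H3K4me1 was common at WT-only peaks and was kept more often than openness. In the second experiment, 81.6% overlapped a Th2 WT H3K4me1 peak (87.3% of all WT H3K27ac peaks) and 73.0% a KO-labelled one (86.9% of all). Of the 5630 marked in WT, 82.9% were marked in the KO-labelled list too, against 96.1% of shared peaks. Per the labels this experiment had 1 input library for each genotype, which the H3K27ac and H3K4me1 lists may share.

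Against naive cells the difference was wider. The first H3K4me1 experiment used other libraries than the H3K27ac lists and compared Th2 WT with naive WT. WT-only peaks overlapped its Th2 list at 84.1% (92.4% of all WT H3K27ac peaks) and its naive list at 34.2% (68.5% of all). Of the 5805 marked in Th2, 38.0% were marked in naive cells, against 79.7% of shared peaks. In the score classes the shares ran from 37.1% to 41.6% for WT-only peaks and from 59.0% to 91.3% for shared peaks. Thus 3599 of the 6900 WT-only peaks, or 52.2%, sat in H3K4me1 listed in Th2 and not in naive cells, and 19.2% of shared peaks did. Of the KO-labelled H3K27ac peaks that overlapped no WT peak, 32.8% did. Of those marked in Th2, 51.2% were marked in naive cells. The trait was thus not confined to WT-only peaks.

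**Figure D2:**
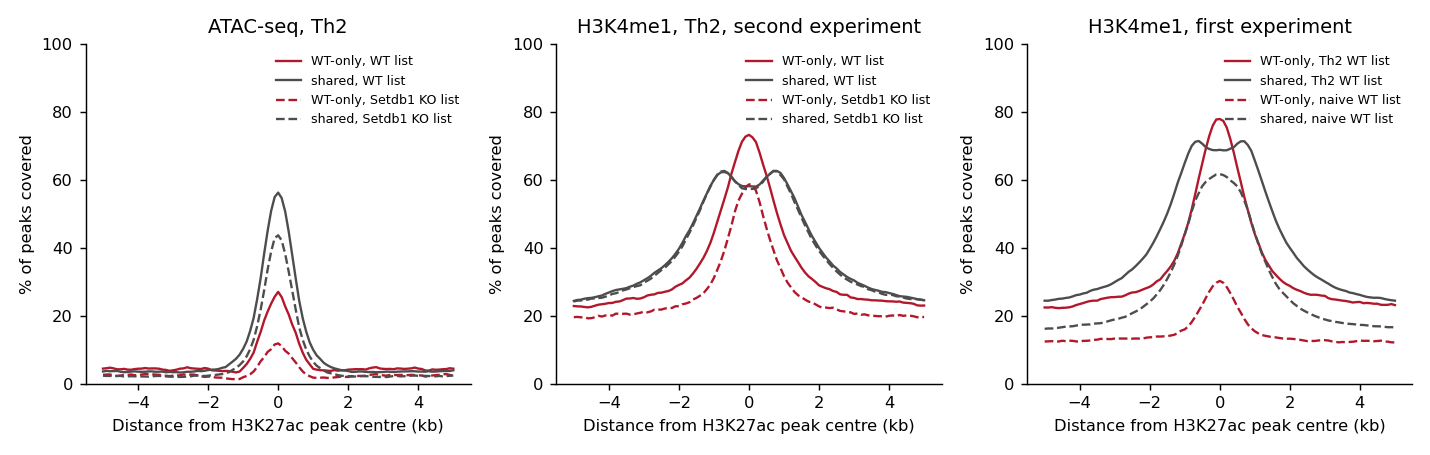
Percent of H3K27ac peaks covered by a peak of another list at each distance from the H3K27ac peak centre (x axis, kb, in steps of 100 bp). Red, WT-only peaks; grey, shared peaks; solid, Th2 WT lists; dashed, KO-labelled (left and middle) or naive WT (right). At the centre of WT-only peaks coverage is 27.04% and 11.9% for ATAC-seq, 73.3% and 58.7% for H3K4me1 in the second experiment, and 77.9% and 30.3% for Th2 against naive. At the centre of shared peaks it is, in the same order, 56.3% and 43.7%, 58.2% and 57.3%, and 68.9% and 61.7%.

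Few WT-only peaks carried H3K9me3. The Th2 WT H3K9me3 list overlapped 1.39% of them (3.11% of all WT H3K27ac peaks), the Th2 Setdb1 KO list 0.058% (0.253% of all) and the Th2 Suv39h1 KO list 9.64% (15.6% of all). These lists were made with a score whose scale no label or header gives, and differ in how much they cover. The naive WT H3K9me3 list overlapped 0.493% (0.855% of all) and the naive KO-labelled list 0.029% (0.183% of all).

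RNA was then compared at genes near WT-only peaks, which lay inside or within 10 kb of 4512 genes with a position, 3622 of them tested. In Th2 cells 1030 of these (28.4%) were lower and 1046 (28.9%) higher in the KO-labelled libraries, at a limma adjusted p under 0.05. Over all 16170 tested genes with a position the shares were 25.1% lower and 30.0% higher, a share close to that near WT-only peaks. The median log2 difference was 0.04 near WT-only peaks and 0.13 over all genes. For the 322 tested genes near a WT-only peak at or above the median score of the WT list, 35.4% were lower and 23.3% higher. The share that was lower was 26.3% for the 2577 genes with 1 such peak, 31.6% with 2, 34.0% with 3, 42.0% of 88 with 4 and 41.6% of 89 with 5 or more. The shares also moved with RNA level: in the lowest tertile of genes by Th2 WT level 10.3% near and 8.12% not near a WT-only peak were lower, in the middle tertile 27.2% and 21.7%, and in the top tertile 42.7% and 44.1%.

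At gene starts the counts differed more. For 438 genes a WT-only peak was the only WT H3K27ac within 1000 bp of a start site, and 350 of them were tested. Of these, 126 (36.0%) were lower and 45 (12.9%) higher in KO-labelled Th2 libraries, against 23.1% lower and 32.5% higher over the 11553 tested genes with a start site. The median log2 difference was -0.70, against 0.18 over those genes. The 8670 genes with only shared peaks at their starts were lower in 25.9% and higher in 36.6%, and the 2471 with no WT peak in 11.3% and 21.2%. In 158 of the 350 genes all 3 KO-labelled libraries lay below all 3 WT libraries (30.2% of all tested genes with a position), and in 65 they all lay above (35.4% of all). This class was set after values had been seen.

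A gene measured only in Th2 WT had to be lower in the other group, and 25 of the 350 passed the filter on low values only through Th2 libraries. Among genes that passed it in the 12 other libraries, a choice made after seeing the data, 118 of 325 (36.3%) were lower and 44 (13.5%) higher, against 23.0% and 32.9% of 11199 genes with a start. The class also held few highly expressed genes: 201, 119 and 30 fell in the lowest, middle and top tertile by Th2 WT level. Within these tertiles 20.9%, 50.4% and 24 of the 30 were lower, against 5.36%, 17.7% and 41.5% of genes with only shared peaks. For genes with no WT peak at the start they were 7.30%, 41.9% and 51.6%. These tertiles use the Th2 WT libraries that are also in the comparison.

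**Figure D3:**
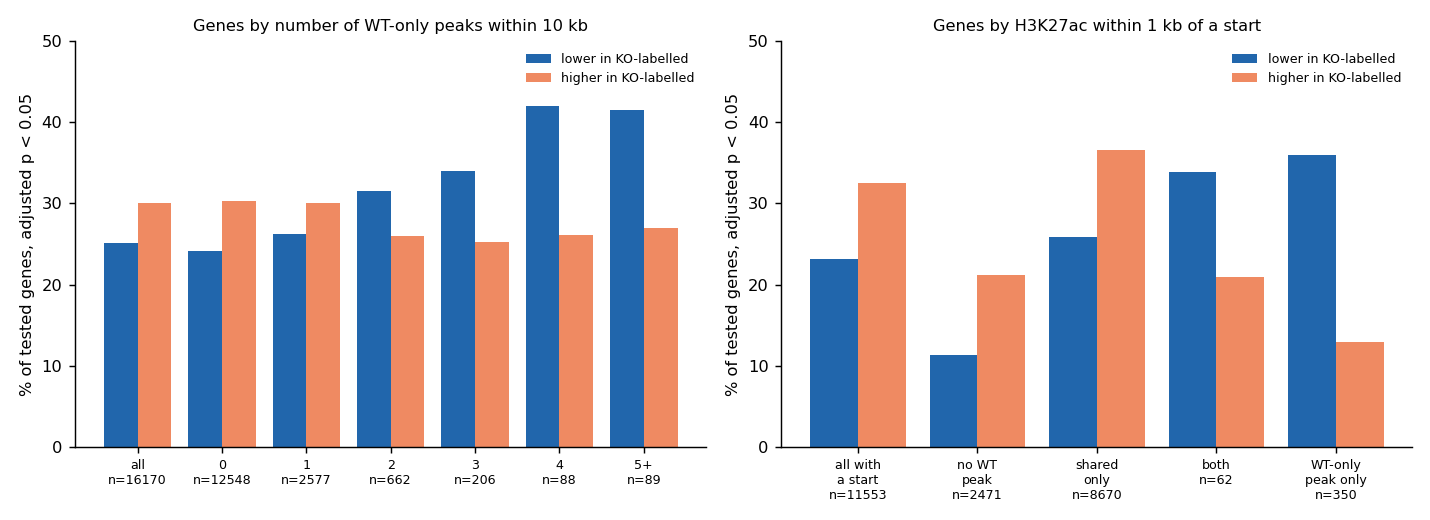
Percent of tested genes that were lower (blue) or higher (orange) in Th2 libraries labelled Setdb1 KO, at a limma adjusted p under 0.05. Left, by the number of WT-only peaks within 10 kb; right, by the H3K27ac within 1 kb of a start site. With a WT-only peak as the only one at the start, 36.0% of 350 genes were lower and 12.9% higher.

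The 10 start-site genes described next were 5 of the 10 largest falls near WT-only peaks and 5 chosen after their values were seen. Adm, which encodes the vasodilator peptide adrenomedullin and is induced by hypoxia, was at 1665, 1518 and 2023 normalised reads in Th2 WT and 4.37, 4.48 and 3.00 in the KO-labelled libraries. It was listed at 0 in all 4 naive WT libraries. The groups did not overlap, and the log2 difference was -8.46 ± 0.64 (adjusted p = 1.44e-09). Fam183b, whose product is linked to cilia, was at 1238, 1711 and 2078 in WT and 0, 2.24 and 3.00 in the KO-labelled libraries (log2 -9.45 ± 0.91, adjusted p = 4.31e-08).

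Bhlhe41 encodes a basic helix-loop-helix repressor that binds E-boxes and is active in Th2 cells. It had 3 WT-only peaks and no KO-only peak within 10 kb, and the one just before its start had a score of 62. Its RNA was 455.7, 465.7 and 493.9 in WT and 6.36, 1.34 and 0 in the KO-labelled libraries (log2 -7.51 ± 1.07, adjusted p = 7.31e-06). All 3 of its WT-only peaks were also in both ATAC-seq lists and in all 4 H3K4me1 lists. At Bhlhe41 the peaks absent from the KO-labelled H3K27ac list were thus still listed as open.

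Selenbp1, a selenium-binding protein gene, was at 2889, 2470 and 2532 in WT and 17.9, 31.8 and 16.5 in the KO-labelled libraries (log2 -6.89 ± 0.55, adjusted p = 3.22e-09). Sdc4, which encodes a heparan sulfate proteoglycan of the cell surface, was at 3478, 3822 and 4700 against 25.8, 57.8 and 40.5 (log2 -6.62 ± 0.56, adjusted p = 6.67e-09). Krt18, a keratin gene, was at 1641, 1312 and 1791 against 19.1, 23.3 and 10.5 (log2 -6.46 ± 0.71, adjusted p = 2.77e-07). None of these overlapped between the groups, and all 3 were at under 25 normalised reads in each naive library.

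Upp1, the uridine phosphorylase gene, was at 195.6, 231.9 and 177.1 in WT and 2.38, 3.13 and 3.997 in the KO-labelled libraries (log2 -5.61 ± 0.67, adjusted p = 7.63e-07). Pygl, which encodes the liver form of glycogen phosphorylase, was at 536.3, 630.9 and 434.1 against 5.96, 15.2 and 13.5 (log2 -5.49 ± 0.97, adjusted p = 8.49e-05). P4ha2, a collagen prolyl hydroxylase gene, was at 2518, 2750 and 3213 against 118.0, 186.3 and 305.3 (log2 -3.89 ± 0.27, adjusted p = 4.83e-10). Their promoters are printed above, and their groups did not overlap.

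Ptgfrn, which encodes a membrane partner of tetraspanins, was the only one of the 10 with a naive difference past the threshold. It was at 2512, 2268 and 2694 in Th2 WT and 86.2, 77.0 and 85.4 in the KO-labelled libraries (log2 -4.89 ± 0.25, adjusted p = 6.71e-12), and fell by 1.02 (adjusted p = 0.00608) in naive cells. All 10 genes rose from naive WT to Th2 WT, by 3.37 (Ptgfrn) to 10.75 (Adm) on the log2 scale. They were picked with the values of the same Th2 WT libraries known, so this rise is a description. Higher RNA at such starts was rarer and included Slc25a47, a mitochondrial carrier gene (log2 4.43 ± 0.78, adjusted p = 7.99e-05), and Hebp2 (4.05 ± 0.80, adjusted p = 0.000251).

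**Figure D4:**
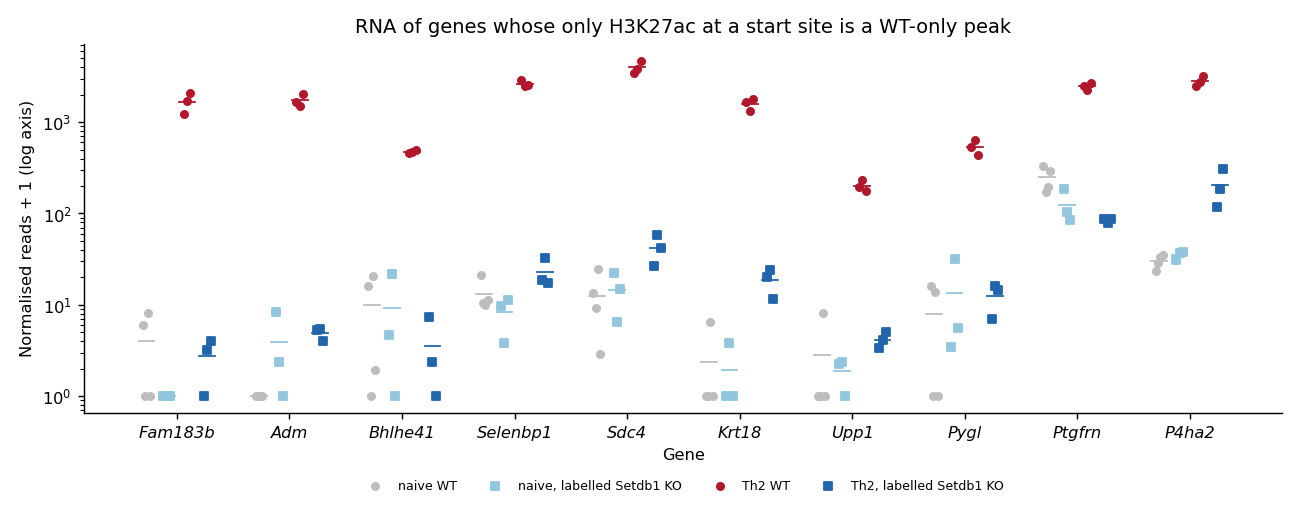
Normalised reads plus 1 (log axis) of 10 genes whose only WT H3K27ac at a start site was a WT-only peak. Points are libraries and short lines are means of naive WT (4), naive labelled Setdb1 KO (3), Th2 WT (3) and Th2 labelled Setdb1 KO (3). In every gene shown the 3 Th2 WT points lie above the 3 KO-labelled Th2 points and above all naive points. The genes were picked with these Th2 values known, so the separation is a description.

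Other large falls were at genes whose WT-only peaks overlapped the gene. Itga7, the laminin-binding integrin alpha 7 gene, fell by 7.11 ± 0.50 on the log2 scale (adjusted p = 5.83e-10), and Dpf1, which encodes a subunit of neuronal BAF chromatin remodellers, gave -7.50 ± 0.52 (adjusted p = 4.91e-10). Cxcr2, a chemokine receptor gene, went from 338.7, 269.1 and 399.1 to 2.38, 2.69 and 0.4996. Pdgfb and H2-Q10, which encode a growth factor and a nonclassical MHC class I molecule, gave log2 differences of -6.68 (adjusted p = 9.57e-08) and -6.98 (adjusted p = 3.83e-10). Genes near a WT-only peak also rose: Nqo2, a quinone reductase gene, rose by 6.67 ± 0.34 (adjusted p = 8.57e-12), and Xdh, the xanthine dehydrogenase gene, by 5.38 ± 0.36 (adjusted p = 2.52e-10). Acoxl, listed at 0 in all 3 Th2 WT libraries, was at 121.6, 118.2 and 176.4 in the KO-labelled ones.

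Of the Th2 genes near WT-only peaks most were lower. Of 27 tested genes of a Th2 list, 15 had one within 10 kb (22.4% of all tested genes did), and 10 of these were lower and 2 higher (25.1% and 30.0% of all), with a median log2 difference of -1.46. Of the 12 without one, 6 were lower and 2 higher. Other lists varied. Such a peak was near 15 of 30 AP-1 and related factor genes, 14 of 30 T cell receptor genes and 12 of 29 glycolysis and hypoxia genes. It was near 7 of 22 Th17, Treg and Tfh genes, 5 of 20 cell cycle genes and 6 of 28 interferon-stimulated genes. Il5 and Il13, which encode the type 2 cytokines of eosinophilia and mucus production, each had 1, in intergenic sequence. Il13 was at 2256, 2987 and 2437 in WT and 1166, 1115 and 366.2 in the KO-labelled libraries (log2 -1.70 ± 0.37, adjusted p = 0.000719). Il5 fell by 1.66 ± 0.50 (adjusted p = 0.00827), but without KO-labelled library 3 it gave -1.26 with an adjusted p of 0.0587. Il10, which encodes an anti-inflammatory cytokine, fell by 1.61 ± 0.51 (adjusted p = 0.0116), and without that library gave -1.39 with 0.0542.

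The Il4 and Maf genes had no WT-only peak within 10 kb and fell all the same, by 1.66 ± 0.27 (adjusted p = 3.13e-05) and 2.31 ± 0.25 (adjusted p = 1.95e-07). Gata3, the gene of the lineage factor, had 1 WT-only peak at chr2:9894020-9894806, open in WT and not in the KO-labelled list, and its RNA was 2200, 2004 and 2303 against 1883, 2467 and 2371 (log2 0.04 ± 0.20, adjusted p = 0.901). The groups overlapped. Il4ra, the IL-4 receptor gene, had 2 in its body and was slightly higher (0.30 ± 0.10, adjusted p = 0.013). Among receptors and factors of Th2 cells, Ccr3 (2 WT-only peaks) fell by 2.87, Pparg (1) by 2.71, Ecm1 (3) by 2.05 and Nfil3 (1) by 1.46 on the log2 scale. Over the whole Th2 list, 22 WT-only peaks lay near its 15 genes. Of these, 21 were in the Th2 H3K4me1 list of the first experiment and 7 in the naive list, and 14 were in the Th2 and not the naive list, among them those at Gata3, Il5 and Il13. The 1 peak in neither list was at Ecm1.

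Th1 genes near WT-only peaks went both ways. Of 11 tested, 4 were lower and 3 higher, while 1 was lower and 12 were higher of the 16 without one. Hlx, which encodes a homeobox factor of Th1 cells and had 2 such peaks, fell by 2.92 ± 0.63 (adjusted p = 0.000574). Tbx21, the gene of the Th1 lineage factor, had 1 at 8830 bp from its start and was at 2.02, 0 and 0 in WT and 17.9, 13.4 and 8.50 in the KO-labelled libraries. Ifng, the gene of the main Th1 cytokine, had none within 10 kb and rose by 3.38 ± 0.69 (adjusted p = 0.000349).

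All 12 tested glycolysis and hypoxia-response genes near a WT-only peak were lower, and so were 16 of the 17 others, so the direction was shared by genes with and without such a peak. Slc2a3, which encodes a glucose transporter, fell by 5.75 ± 0.20 (adjusted p = 7.22e-14) and Ndrg1, a hypoxia-induced gene, by 4.51 ± 0.19 (adjusted p = 8.57e-13). In the same way all 6 tested interferon-stimulated genes near a WT-only peak were higher, as were 19 of the 22 others, with Ifit3 going from 2.02, 0 and 0 to 51.6, 85.1 and 121.4. Of the cell cycle genes 4 of 5 near a WT-only peak were higher, and 10 of the 15 others, Mki67 by 1.90 ± 0.28 (adjusted p = 1.2e-05). For these lists a WT-only peak nearby went with RNA in both directions.

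T cell receptor signalling and costimulation genes near WT-only peaks were lower in 3 and higher in 7 of 14, while 10 were lower and 0 higher of the 16 without one. The median log2 difference was 0.23 near such peaks and -0.64 for the others, and neither was tested against the other. Tnfrsf9, which encodes the costimulatory receptor 4-1BB, fell by 3.21 ± 0.24 (adjusted p = 1.19e-09). Fyn, a Src-family kinase gene with 8 WT-only and 6 KO-only peaks, rose by 1.57 ± 0.10 (adjusted p = 1.6e-10). Of AP-1, BATF, IRF4, RUNX and ETS factor genes, 6 were lower and 4 higher of 15 (5 and 5 of the 15 others), among them Batf3 (-2.51 ± 0.31, adjusted p = 9.87e-07) and Foxp1 (2.91 ± 0.13, adjusted p = 1.02e-12), the latter with 19 KO-only peaks beside its 2. Of Th17, Treg and Tfh genes, 3 were lower and 2 higher of 7 (8 and 4 of the 15 others), and Rora, with 5 WT-only peaks, fell by 2.56 ± 0.24 (adjusted p = 3.32e-08). Homing and adhesion genes were lower in 4 and higher in 1 of 10 (4 and 2 of the 12 others). Genes that write, erase or read lysine 27 were lower in 2 and higher in 3 of 7 (2 and 6 of the 13 others). H3K9 methylation genes were higher in 6 of 8 with none lower (2 lower and 3 higher of the 8 others). Setdb1 itself is among the 6 that were higher. These counts are small, and over all tested genes 25.1% were lower and 30.0% higher.

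**Figure D5:**
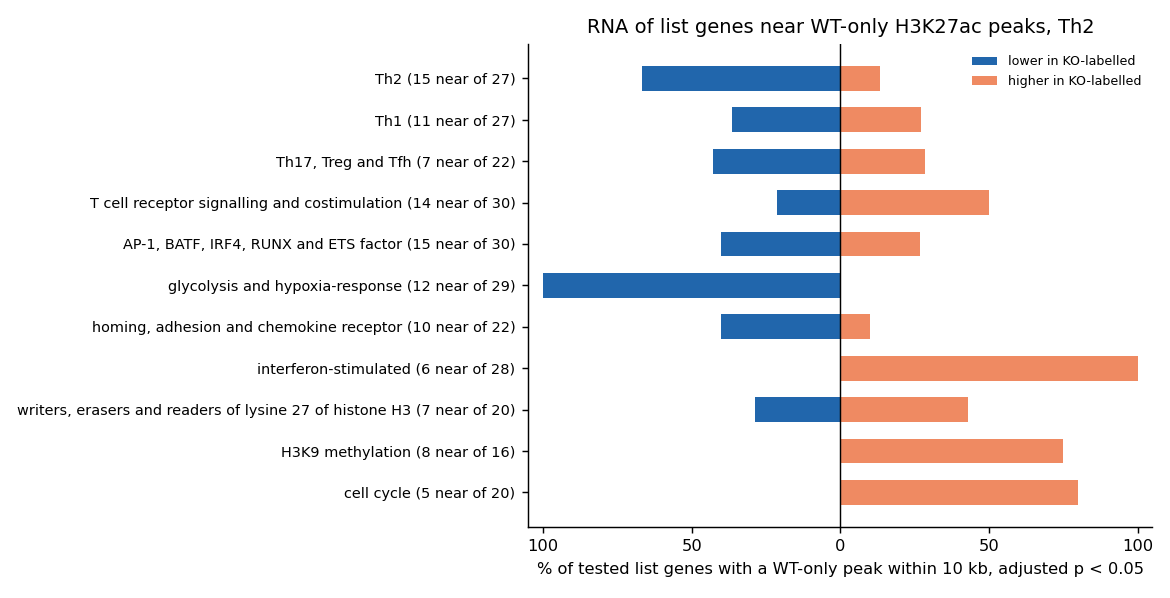
Percent of the tested genes of 11 lists with a WT-only peak within 10 kb that were lower (blue, to the left) or higher (orange, to the right) in Th2 libraries labelled Setdb1 KO, at a limma adjusted p under 0.05. In brackets, tested genes near such a peak of all tested genes of the list. Th2 genes are 10 lower and 2 higher of 15, and glycolysis and hypoxia-response genes 12 lower of 12.

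The genes with most WT-only peaks were Etv6 (17), an ETS family repressor gene, Maml2 (14), a Notch coactivator gene, and Adk (13), the adenosine kinase gene. Etv6 was at 2083, 2139 and 2333 in WT and 1185, 1561 and 1719 in the KO-labelled libraries (log2 -0.57 ± 0.15, adjusted p = 0.00272). Maml2 fell by 1.99 ± 0.18 (adjusted p = 1.2e-08) and Adk by 1.07 ± 0.15 (adjusted p = 5.47e-06). Inpp4b, a phosphoinositide phosphatase gene with 12 WT-only and 21 KO-only peaks, went the other way and rose by 1.91 ± 0.09 (adjusted p = 3.12e-12). By gene length, 35.8% of genes near a WT-only peak were lower in the shortest tertile, 30.3% in the middle and 25.03% in the top tertile. Of the others 32.8%, 21.97% and 14.8% were lower. In the top tertile more were higher than lower, at 33.1% of those near and 36.9% of the others.

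The 10 WT-only peaks with the highest scores ran from 70 to 86. Of these, 9 were open in WT by ATAC-seq, 3 of which were also in the KO-labelled list. One lay 76 bp from a start beside Atf6b, Ppt2 and Fkbpl, and these 3 neighbours did not move together. Fkbpl, an immunophilin-like gene, was at 217.8, 172.6 and 237.0 in WT and 73.5, 53.3 and 76.4 in the KO-labelled libraries, and Ppt2, a thioesterase gene, fell by 2.15 ± 0.29 (adjusted p = 4.24e-06), while Atf6b, which encodes a stress sensor of the endoplasmic reticulum, rose by 0.95 ± 0.17 (adjusted p = 0.000104). Rras2, a Ras-related GTPase gene with 7 WT-only peaks, 1 of them 48 bp from a start, fell by 0.97 ± 0.11 (adjusted p = 2.72e-07). Chd6, a chromatin remodeller gene with 3, rose by 0.84 ± 0.11 (adjusted p = 2.86e-06).

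Genes near WT-only peaks were also followed in the other comparisons. After the move to IL-12, 642 (17.7%) were lower and 682 (18.8%) higher in KO-labelled libraries, against 16.7% and 18% of all tested genes with a position. Leaving out a Th2-Th1 WT library leaves 1, assumed to vary like the other groups, so such counts are not given. In naive cells 116 (3.20%) were lower and 356 (9.83%) higher, against 3.58% and 7.82%. The naive counts moved with single libraries, and so did the share over all tested genes with a position. Without the first naive KO-labelled library 227 (6.28%) were higher, against 4.93% of all. Without the second 215 (5.99%) were higher, against 4.69%. Naive WT 1 and 3 and naive KO-labelled 2 stood apart in the number of genes detected at equal depth. Without them 49 (1.41%) were lower and 207 (5.94%) higher, against 1.3% and 4.95%. From naive WT to Th2 WT, 1154 (31.9%) were lower and 1441 (39.8%) higher, against 33.1% and 33.8%. The median log2 difference was 0.13 near WT-only peaks and -0.10 over all genes. This comparison shares the WT libraries with the others.

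The 350 tested genes with a WT-only peak as the only one at a start are given in the same comparisons. After the move to IL-12, 52 (14.9%) were lower and 41 (11.7%) higher, against 16.1% and 18.9% of genes with a start. Counts without a Th2-Th1 WT library are again not given, since 1 WT library would remain. In naive cells 13 (3.71%) were lower and 8 (2.29%) higher, against 3.4% and 8.5%. Without naive KO-labelled libraries 1, 2 and 3 the higher count was 5, 3 and 15 (1.44%, 0.867% and 4.29%). Over all tested genes with a position these shares were 4.93%, 4.69% and 10.2%. From naive WT to Th2 WT, 68 (19.4%) were lower and 164 (46.9%) higher, against 34.5% and 33.5%.

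The genotype difference in Th2 cells was set against that in naive cells for the 10 largest falls and 9 genes set by name (Setdb1, Gata3, Il4, Il5, Il13, Il4ra, Maf, Tbx21 and Ifng). The interaction term in limma passed an adjusted p of 0.05 for 16 of the 19, against 42.4% of all 16170 tested genes with a position. The 10 falls were chosen on the same Th2 values that enter this term, so their count is a description and supports nothing. Among the 9 genes set by name, Il5, Il4ra and Ifng did not pass.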

How the data were processed

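The authors deposited 1 RNA table and 13 peak lists. The signal values of the RNA table are, per the file headers and from the values, the authors' read counts divided by a size factor, and whole reads were recovered from 100% of values. In the deposited peak lists of MACS2 layout, the score is 10 times the -log10 q and the ratio is the authors' fold enrichment over background; both served here to describe and rank peaks. The deposited H3K9me3 lists carry the authors' own score, whose scale no source used here gives. The -log10 p values in the deposited lists were not used. Per the submitters' processing notes, cutadapt 1.3, BWA 0.7.10, TopHat2 2.0.5, DESeq and MACS2 2.1.0 were used, with mm10. The ATAC-seq and first H3K4me1 lists are named as merged replicates.

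Peaks were compared by overlap of at least 1 bp. Genes were placed by RefSeq (GRCm38.p6), and 16170 of the 17254 tested genes (93.7%) had a position. Start sites were those of the RefSeq promoter table, which held one for 11553 of the tested genes with a position. RNA was tested with limma 3.58.1 (R 4.3.3) on log2(value + 1), over 18 libraries in 6 groups, keeping genes that reached 10 in 2 or more libraries, with Benjamini-Hochberg adjustment; fold changes are on that scale and understate the change of low genes. Library totals were 10.02 to 44.7 M reads. edgeR 4.0.16 and DESeq2 1.42.0 on the recovered reads were alternatives. The script was tested on simulated data.

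The members and gene lists were chosen with earlier results of these data known. Named genes are 9 set by name, those near the 10 highest-scoring WT-only peaks, the 10 with most such peaks, the 5 largest clusters, the 10 largest falls and 10 largest rises near such a peak (mean of at least 50, no overlap between groups) and up to 4 of each list; the start-site genes other than these, and Il10 and Nfil3, were picked after values were seen. Replicate numbers were checked and did not pair the libraries. Levels of B cell markers are not reported here.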

Additional observations from a re-analysis of the deposited data

Results flagged for a closer look

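The genotype difference in Th2 cells, minus that in naive cells, passed the adjusted threshold of the interaction term for 16 of 19 genes looked at (limma, log2 scale), against 42.4% of all tested genes with a position. Of the 19, 10 were chosen for the largest Th2 falls, which enter this term, so the count shows nothing particular to these genes. It was -9.90 for Adm, -8.52 for Dpf1, -8.14 for Pdgfb, -8.04 for Fam183b, -7.41 for Bhlhe41, -7.03 for Sdc4, -6.51 for Cxcr2, -6.13 for Selenbp1, -5.75 for Itga7 and -4.39 for H2-Q10, all near WT-only peaks. Of the Th2 genes it was -2.12 for Il13, -2.08 for Il4, -1.83 for Maf and -0.76 for Gata3 (adjusted p = 0.0354), and it was 4.52 for Tbx21 and 3.76 for Setdb1. Gata3 RNA itself did not pass the threshold between the Th2 groups, so its term is not a fall in Th2 cells. The largest adjusted p among the others was 0.00247, for Il13.

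In naive WT cells, 1 of the 4 libraries lay apart from the other 3 for 6 of the 24 genes checked. This was Il5 (3.62 normalised reads), Il4ra (6920), Ifng (1.81), Selenbp1 (20), Krt18 (5.43) and Upp1 (7.24). For Ifng, Il5, Krt18 and Upp1 these are 1, 2, 3 and 4 reads, all in naive WT library 3, with 0 in the other 3 libraries, and that library stood apart with 25556 genes detected at equal depth. Selenbp1 was 16 reads in library 1 and Il4ra was high in library 4. About 1 in 20 groups of 4 would be marked in this way by chance, but not where only 1 library has reads. Such a gene is always marked, so that rate does not apply to Ifng, Il5, Krt18 and Upp1.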

How the results depend on the processing

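The number of WT-only peaks depended on the rule. It was 12116 when a KO-labelled peak had to cover at least 50% of a WT peak, 427 among WT peaks at or above the median score, and 13289 against KO-labelled peaks at or above theirs. With other lists held to their median score, overlap fell to 31.1% (ATAC-seq WT), 11.0% (ATAC-seq KO-labelled), 63.1% and 52.7% (second H3K4me1, WT and KO-labelled), 44.5% and 18.9% (first H3K4me1, Th2 and naive) and 0.812% (H3K9me3 Th2 WT). With 50% of the peak covered they were 17.4%, 6.81%, 73.1%, 57.7%, 77.6%, 29.8% and 0.797%. Within 50 kb lay 6900 tested genes. Their lower and higher counts were 1858 and 2027 in Th2 (26.9% and 29.4%) and 1225 and 1281 after the switch (17.8% and 18.6%). They were 261 and 633 in naive cells (3.78% and 9.17%) and 2236 and 2638 for Th2 against naive (32.4% and 38.2%). For peaks at or above the median score they were 114 and 75, 71 and 45, 8 and 34, and 87 and 148.

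Naive counts near WT-only peaks were 33 and 88 (0.911% and 2.43%) with the 2 groups alone, against 0.649% and 1.82% of all tested genes with a position. They were 49 and 207 without the 3 naive libraries that stood apart (1.41% and 5.94%, against 1.3% and 4.95%). With DESeq2 184 were lower (5.08%, against 5.3%), and for peaks overlapping the gene 73 (2.99%, against 3.58%). At starts the naive counts were 4 and 2 with the 2 groups alone (1.14% and 0.571%, against 0.649% and 1.82%). They were 21 and 18 with DESeq2 (6.0% and 5.14%, against 5.3% and 10.2%). With a pseudocount of 8, 13 were higher (3.71%, against 8.17%). With no filter 8 were lower (1.84%, against 1.55%), and without those 3 libraries 6 were (1.81%, against 1.3%). Same-numbered replicates did not deviate together. A replicate block gave 126 lower and 45 higher at starts in Th2 (36.0% and 12.9%, against 25.2% and 30.1% of all tested genes with a position). In naive cells it gave 5 higher (1.43%, against 6.92%).

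Leaving out 1 library at a time gave, at starts, 111 to 119 lower and 41 to 46 higher in Th2, 32 to 47 and 28 to 37 after the switch, 10 to 13 and 3 to 15 in naive cells, and 62 to 74 and 153 to 177 for Th2 against naive. Near WT-only peaks it gave 922 to 958 and 923 to 998, 446 to 587 and 443 to 605, 85 to 164 and 215 to 521, and 1086 to 1183 and 1369 to 1485; the cause was not tested. Of 945 alternative values of named genes 943 kept direction and call; Il5 and Il10 lost theirs without Th2 KO-labelled library 3. With TMM scaling, which like the run without 3 naive libraries was chosen after seeing the data, the median over all genes in Th2 was 0.24 in place of 0.13. Peaks rest on 1 library a genotype, so no alternative gives them a replicate error.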
